A study of Mus musculus with 8 samples.

Results

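The genes described here are 10 transcription and RNA decay factors associated with resting T cells: the Krüppel-like factors Klf2, Klf3, Klf6 and Klf13, the forkhead factors Foxo1, Foxo3 and Foxp1, and the antiproliferative genes Btg1, Btg2 and Tob1. They were taken by symbol from a count table of 41730 gene rows, in which each had a row, and all 10 passed the filter on low counts that left 10037 genes for testing. The cells were mouse CD8+ T cells isolated as naive cells with a magnetic kit, then held for 24 h in culture. Libraries RGX-104 replicates 5 to 8 came from cells given 2 µM RGX-104, a small molecule that activates liver X receptors (LXR), and libraries DMSO replicates 1 to 4 from cells given its solvent alone. The labels name neither mouse strain, age nor sex, nor do they say which libraries share an animal or a culture, so each p-value measures a spread that may be technical.

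A naive T cell rests outside the cell cycle, and this state is kept up actively. KLF2 and FOXO1 are transcription factors that maintain the genes of recirculation and of survival in resting T cells, and FOXO factors are held in the cytoplasm when AKT phosphorylates them after receptor or cytokine signals. BTG and TOB proteins bind the CCR4-NOT deadenylase, which shortens poly(A) tails, and BTG1 and BTG2 are known to keep messenger RNA low in resting T cells. LXR are nuclear receptors for oxidised sterols that drive cholesterol export and fatty acid synthesis.

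None of the 10 genes passed the test between RGX-104 and DMSO (edgeR quasi-likelihood test, adjusted p = 1.00 for each). Of all genes tested, 0.11% were called at an adjusted p under 0.05, which is 0.0996% higher and 0.00996% lower. The median log2 fold change of the 10 was -0.01, with 4 above 0 and 6 below, and that of all tested genes was 0.01. At an unadjusted p under 0.05 there was 1 member, Klf6, against 3.81% of all genes, and 1 member, Foxo3, had groups that did not overlap, against 3.56% of all genes. DESeq2 and limma-voom called 0 members, at backgrounds of 0.362% and 0.139%. A missed threshold does not show that the levels were equal, so the 95% interval of each difference is given below.

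**Figure D1:**
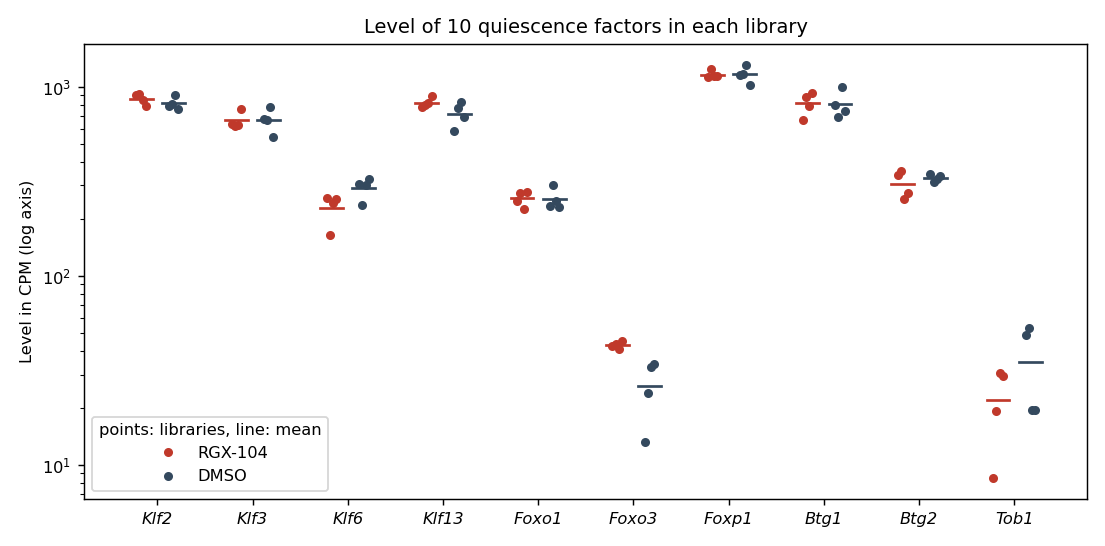
Level of each gene as CPM, its count relative to the total count of the library (log axis), 1 point per library and a line at the mean of 4, with RGX-104 on the left of each pair and DMSO on the right. The groups overlap for 9 of the 10 genes, and for Foxo3 the RGX-104 libraries, at 40.8 to 44.9 CPM, lie above the DMSO libraries, at 13.2 to 34.0 CPM.

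The treatment was visible in the same libraries. Of 8 LXR target or receptor genes tested, 7 rose (edgeR, adjusted p under 0.05), among them Abca1, a cholesterol exporter, at 346 ± 34.8 CPM in RGX-104 and 6.61 ± 5.59 CPM in DMSO (SD, n = 4 each). This list, like the others, was chosen with earlier results of these data known, so the share that rose is not an independent check. Library totals, to which CPM values are relative, lay between 16196217 and 28287445. The kit reads transcripts near the 3' end, so a level stands for ends counted and is not divided by length. Genes with at least 1 count numbered 10442 to 10990 in the RGX-104 libraries and 9772 to 10908 in the DMSO libraries, with DMSO replicates 1 to 3 lowest, at 10194 or fewer. The zeros of low genes correspond to only 182352 to 344257 apparent molecules per library, so that 1 molecule stands for 2.90 to 5.48 CPM. Summed markers of CD8 T cells lay between 3680 and 4102 CPM in RGX-104 and between 3589 and 3780 CPM in DMSO, with 11 of 12 listed genes detected and Cd28 at 0. Cd8a averaged 739 ± 23.1 CPM in RGX-104 and 668 ± 33.8 CPM in DMSO, Cd8b1 716 ± 60.3 CPM in RGX-104 and 719 ± 30.0 CPM in DMSO, and Cd3d 630.1 ± 84.9 CPM in RGX-104 and 627 ± 75.5 CPM in DMSO. None of these markers was called, and at an unadjusted p under 0.05 Lat was higher and Cd5 and Themis were lower. Summed B cell markers (9 of 9 detected) lay between 130.4 and 193 CPM in RGX-104 and between 60.1 and 232 CPM in DMSO. Several of the 10 genes are also expressed by B cells, and the part of such cells in their levels was not tested. The 8 other marker lists, of CD4 or regulatory T, myeloid, dendritic, natural killer, erythroid, neutrophil, platelet and stromal cells, reached at most 118 CPM in an RGX-104 library and 124 CPM in a DMSO library. Both maxima came from the stromal or endothelial list, which averaged 94.8 CPM in RGX-104 and 88.6 CPM in DMSO. Pecam1 alone averaged 93.2 CPM in RGX-104 and 86.2 CPM in DMSO, and Cdh5, Kdr and Sparc had no counts. No marker list had an adjusted exact permutation p below 1 (two-sided, 10 lists), but 4 against 4 libraries allow no exact p below 0.0286, or 0.286 for a single list after adjustment, so a shift of 1 list could not pass. In such bulk samples fewer cells of a type and less RNA per cell cannot be told apart.

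Of the 4 KLF members, Klf2, Klf3 and Klf13 had the higher levels and log2 fold changes within 0.18 of 0, and Klf6 had the lower mean in RGX-104 without being called. Klf2, which drives expression of the egress receptor S1pr1 in T cells, had 899.9, 913, 849 and 788 CPM in RGX-104 replicates 5 to 8 and 793, 806, 903 and 759 CPM in DMSO replicates 1 to 4. The groups overlapped, with DMSO replicate 3 as high as the upper RGX-104 libraries. Means were 862 ± 56.9 CPM in RGX-104 and 815 ± 61.6 CPM in DMSO, a log2 fold change of 0.07 ± 0.10 (SE), and the 95% interval ran from -0.15 to 0.28, or from 0.900-fold to 1.22-fold. Klf2 is a compact gene at chr8:72319033-72321656 (GRCm38, GENCODE M21, plus strand) with 1 annotated transcript.

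Klf3, a repressor that works with the corepressor CtBP, had 633, 622, 630.0 and 763 CPM in RGX-104 replicates 5 to 8 and 675, 665, 782 and 539 CPM in DMSO replicates 1 to 4. The DMSO libraries spanned all of the RGX-104 libraries, and the highest RGX-104 value, in replicate 8, stood apart from the other 3. The log2 fold change was -0.02 ± 0.12 with an interval from -0.28 to 0.24. Klf3 lies at chr5:64803388-64832901.

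Klf13, known in human T cells as an activator of the chemokine gene CCL5, had 781, 799, 818 and 890.4 CPM in RGX-104 replicates 5 to 8 and 581, 769, 832 and 688 CPM in DMSO replicates 1 to 4. All RGX-104 libraries were above 3 of the DMSO libraries, and DMSO replicate 3 was above 3 of the RGX-104 libraries. Its log2 fold change of 0.18 ± 0.12 had an interval from -0.07 to 0.43 (edgeR, unadjusted p = 0.140), and it was 0.09 without DMSO replicate 1. Klf13 lies at chr7:63886351-63938915 on the minus strand.

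Klf6, a factor that many cell types induce after stimulation, was the member with the smallest p. It had 257, 163, 241 and 254 CPM in RGX-104 replicates 5 to 8 and 306, 236, 300.1 and 324 CPM in DMSO replicates 1 to 4. The groups overlapped through DMSO replicate 2 alone, and RGX-104 replicate 6 was the lowest library. Means were 229 ± 44.2 CPM in RGX-104 and 292 ± 38.7 CPM in DMSO, with a log2 fold change of -0.37 ± 0.17 and an interval from -0.73 to -0.01 (edgeR, unadjusted p = 0.0451, adjusted p = 1.00). The share of all genes at an unadjusted p under 0.05 and lower was 1.82%, and Klf6 ranked 348 by p among the 10037. Without RGX-104 replicate 6 the log2 fold change was -0.24 (edgeR, unadjusted p = 0.160), and without DMSO replicate 2 it was -0.47 (edgeR, unadjusted p = 0.0147). Without DMSO replicate 4 it was -0.31 (edgeR, unadjusted p = 0.111). Over the 15 alternatives it ranged from -0.54 to -0.24, and the lowest adjusted p was 0.411, with DESeq2. Klf6 lies at chr13:5861482-5870394.

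The sequences just before the start sites of Klf2 and Klf6 are shown because Klf2 had the highest CPM of the 4 KLF members and Klf6 had the smallest p of the 10. They come from RefSeq on GRCm38.p6, 5' to 3' on the gene's strand, and end before the first base that RefSeq or GENCODE M21 annotates as transcribed.
Klf2 (chr8:72318812-72319032, plus strand): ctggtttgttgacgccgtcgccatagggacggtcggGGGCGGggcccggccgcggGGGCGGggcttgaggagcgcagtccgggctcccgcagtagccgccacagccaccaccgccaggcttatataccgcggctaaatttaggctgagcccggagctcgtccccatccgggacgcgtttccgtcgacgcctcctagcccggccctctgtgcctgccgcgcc
Klf6 (chr13:5861239-5861481, plus strand): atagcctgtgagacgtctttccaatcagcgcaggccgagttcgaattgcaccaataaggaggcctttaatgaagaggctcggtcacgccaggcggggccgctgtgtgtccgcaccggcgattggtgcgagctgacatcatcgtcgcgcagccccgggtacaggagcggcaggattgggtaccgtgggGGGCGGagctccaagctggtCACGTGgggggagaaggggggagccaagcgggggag
Capitals mark GGGCGG, the GC box that SP and KLF factors bind, and in Klf6 also CACGTG, an E-box, which does not overlap it. The Klf2 stretch holds the GC box at positions -214 and -195 from the RefSeq start site, and that of Klf6 at -63, with the E-box at -43. In windows of 300 bases searched on both strands, GGGCGG was found for all 10 members, in 11 of their 12 windows, and in 62.5% of 10093 windows of tested genes. CACGTG was found in 10.5% of those windows, and among the members in Klf6 alone. CCACCC, the other box of KLF factors, was in 6 of the 12 windows of the members and in 35.7% of those of tested genes.

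**Figure D2:**
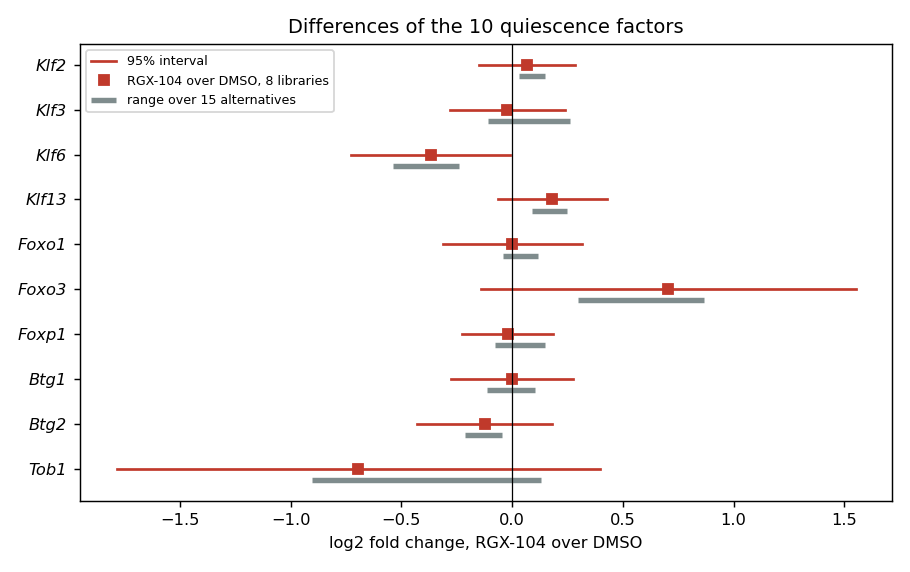
Log2 fold change of each gene, RGX-104 over DMSO, as a square with its 95% interval from the edgeR fit, and below it the range over 15 alternative settings as a grey bar. Foxo3 at 0.70 and Tob1 at -0.69 lie farthest from 0 and have the widest intervals, while Klf2, Klf3, Foxo1, Foxp1 and Btg1 lie within 0.07 of 0.

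The forkhead factors split by level. Foxp1, which holds naive T cells in quiescence and restrains Il7r, had 1123, 1243, 1131 and 1132 CPM in RGX-104 replicates 5 to 8 and 1154, 1164, 1306 and 1020 CPM in DMSO replicates 1 to 4. RGX-104 lay inside the DMSO range, with means of 1157 ± 57.6 CPM in RGX-104 and 1161 ± 117 CPM in DMSO. The log2 fold change was -0.02 ± 0.10, and its interval from -0.23 to 0.19, or 0.855-fold to 1.14-fold, was the narrowest of the 10. Foxp1 spans chr6:98925338-99522721 on the minus strand with 31 annotated transcripts, which 3' end counts do not tell apart.

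Foxo1, which maintains Il7r and Klf2 in naive T cells, had 249, 273, 226 and 277 CPM in RGX-104 replicates 5 to 8 and 233, 301, 249 and 231 CPM in DMSO replicates 1 to 4. The groups covered nearly the same range. Means were 256 ± 23.6 CPM in RGX-104 and 254 ± 32.8 CPM in DMSO, and the log2 fold change of 0.00079 had an interval from -0.31 to 0.31. Foxo1 lies at chr3:52268336-52353221.

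Foxo3, another FOXO factor that also induces genes of cell cycle arrest and cell death, was the member whose groups did not overlap. It had 42.2, 43.5, 40.8 and 44.9 CPM in RGX-104 replicates 5 to 8, against 13.2, 24.0, 32.8 and 34.0 CPM in DMSO replicates 1 to 4. The RGX-104 libraries lay close together and the DMSO libraries were spread, with a coefficient of variation of 4.07% in RGX-104 and 37.1% in DMSO. In 2.2% of all tested genes every RGX-104 library was above every DMSO library. The log2 fold change was 0.70 ± 0.40 with an interval from -0.14 to 1.55 (edgeR, unadjusted p = 0.0977, adjusted p = 1.00), so neither no difference nor a 2.93-fold one lies outside it. At this level a library held few molecules, about 12.9 apparent molecules of Foxo3 in RGX-104 and 6.19 in DMSO on average. Random sampling of so few molecules would be expected to spread libraries by more than the 4.07% seen in RGX-104. Why the RGX-104 libraries lay closer than that was not tested. The DMSO libraries with the lowest Foxo3, replicates 1 and 2, were also those with the fewest genes detected, 10047 and 9772. DMSO replicate 3, with 10194 genes detected, stood at 32.8 CPM, near the 34.0 CPM of replicate 4 with 10908. Tob1, also of few molecules, was highest in DMSO replicates 1 and 2. The part of detection in the Foxo3 difference was not tested beyond the fits that follow. Adjusted for genes detected per library, the log2 fold change was 0.45, and against DMSO replicate 4 alone it was 0.30, a fit in which the median of all genes was 0.13 and the lone DMSO library is assumed to vary like the RGX-104 libraries. Without DMSO replicate 1 it was 0.48. Foxo3 lies at chr10:42181841-42276755 on the minus strand.

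Counts of Foxo1 and Foxo3 in the same library need no scaling to be compared as a ratio. The ratio of Foxo1 to Foxo3 counts was 5.90, 6.28, 5.55 and 6.18 in RGX-104 replicates 5 to 8 and 17.7, 12.6, 7.61 and 6.78 in DMSO replicates 1 to 4. It averaged 5.98 ± 0.33 in RGX-104 and 11.2 ± 5.05 in DMSO, without overlap. The ratio rests on the same Foxo3 counts and is no separate support for a difference.

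The stretch before the Foxo3 start site is shown because Foxo3 had the largest log2 fold change of the 10.
Foxo3 (chr10:42276756-42276945, minus strand): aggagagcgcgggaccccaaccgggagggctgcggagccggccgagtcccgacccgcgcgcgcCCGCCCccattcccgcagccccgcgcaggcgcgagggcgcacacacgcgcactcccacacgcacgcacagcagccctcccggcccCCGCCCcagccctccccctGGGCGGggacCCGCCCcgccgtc
Capitals mark the GC box GGGCGG or its reverse complement CCGCCC. The letters AGGTCA, the core that nuclear receptors such as LXR bind as a repeat, were not found in the 300-base window of Foxo3. Of the 12 windows of the 10 members 1 held AGGTCA on either strand, that of Btg2, against 12.1% of the windows of tested genes. The direct repeat of AGGTCA spaced by 4 bases, which LXR prefers, was in none of the 12. It was in 0% of the 10093 windows of tested genes and in 0.0152% of all 32851 windows, so its absence does not set the members apart. A window without these letters says nothing about binding elsewhere.

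None of Btg1, Btg2 and Tob1, which bind the deadenylase, passed the test. Btg1 had 663, 884, 789 and 930.3 CPM in RGX-104 replicates 5 to 8 and 804, 689, 995 and 745 CPM in DMSO replicates 1 to 4. The DMSO libraries reached both the highest value and nearly the lowest. Means were 817 ± 118 CPM in RGX-104 and 808 ± 133 CPM in DMSO, and the log2 fold change of -0.00059 had an interval from -0.27 to 0.27, or 0.827-fold to 1.21-fold.

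Btg2, which p53 and serum stimulation induce in many cells, had 339, 359, 254 and 272 CPM in RGX-104 replicates 5 to 8 and 344, 313, 323 and 337 CPM in DMSO replicates 1 to 4. Here the RGX-104 libraries were spread, replicates 7 and 8 lying below all DMSO libraries, and the DMSO libraries lay close together. The coefficient of variation was 16.6% in RGX-104 and 4.18% in DMSO. The log2 fold change was -0.12 ± 0.15 with an interval from -0.43 to 0.18 (edgeR, unadjusted p = 0.408). It was -0.04 without RGX-104 replicate 7, -0.07 without RGX-104 replicate 8 and -0.21 without RGX-104 replicate 6.

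Tob1, known in human T cells as a brake on proliferation, had the lowest mean CPM over all 8 libraries. It had 8.48, 19.2, 30.4 and 29.5 CPM in RGX-104 replicates 5 to 8 and 48.5, 52.8, 19.5 and 19.5 CPM in DMSO replicates 1 to 4. DMSO replicates 1 and 2 were above all other libraries, while DMSO replicates 3 and 4 lay inside the RGX-104 range. The log2 fold change of -0.69 ± 0.52 had an interval from -1.78 to 0.40 (edgeR, unadjusted p = 0.198), and it was -0.28 when adjusted for genes detected per library and 0.13 against DMSO replicate 4 alone. Leaving out 1 library gave -0.90 to -0.43, the smallest size without RGX-104 replicate 5. A library held about 6.86 apparent molecules of Tob1 in RGX-104 and 7.41 in DMSO. Btg1 lies at chr10:96617006-96622809, Btg2 at chr1:134075170-134079120 on the minus strand and Tob1 at chr11:94211454-94215495. All 10 members are annotated as protein-coding, and of 10 other annotated genes that overlap Klf3, Klf13, Foxo1 or Foxp1 none covers the 3' end of the member.

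The windows before Btg1 and Btg2 are shown because, of the 10 members, Btg1 alone holds the FOXO site and Btg2 alone the LXR core letters.
Btg1 (chr10:96616751-96617000, plus strand): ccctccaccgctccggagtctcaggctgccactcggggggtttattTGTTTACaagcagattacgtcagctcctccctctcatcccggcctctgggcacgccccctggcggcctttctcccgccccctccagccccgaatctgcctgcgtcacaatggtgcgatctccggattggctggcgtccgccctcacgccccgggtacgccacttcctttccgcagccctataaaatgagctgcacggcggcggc
Btg2 (chr1:134079156-134079405, minus strand): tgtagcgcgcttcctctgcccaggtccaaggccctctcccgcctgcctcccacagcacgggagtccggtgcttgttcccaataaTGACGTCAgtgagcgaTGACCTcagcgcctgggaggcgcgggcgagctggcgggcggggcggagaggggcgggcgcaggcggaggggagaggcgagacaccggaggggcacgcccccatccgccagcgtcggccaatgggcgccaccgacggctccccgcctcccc
In Btg1 the capitals mark TGTTTAC at position -204, the reverse complement of the FOXO site GTAAACA, which is in 1 of 12 windows of the members and in 2.61% of windows of tested genes. In Btg2 they mark TGACGTCA at -166, the cyclic AMP response element, found in 1 of 12 windows of the members and in 3.21% of windows of tested genes. They also mark TGACCT in Btg2, the reverse complement of AGGTCA, which does not overlap the other motif. Neither gene was called, and a match of letters is a description and not a bound site.

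From library to library the highest and lowest values fell in different places for different genes. DMSO replicate 3 was the highest DMSO library for 5 of the 10, namely Klf2, Klf3, Klf13, Foxp1 and Btg1, and DMSO replicate 4 was the lowest for 4. Among the RGX-104 libraries replicate 8 was the highest for 5 and replicate 5 the lowest for 4. Together the 10 genes took 0.500% to 0.538% of the counts in RGX-104 and 0.470% to 0.574% in DMSO. On the log2(CPM + 1) scale the standard deviation over all 8 libraries, for the 8 members with a mean of at least 50 CPM, ran from 0.10 for Klf2 and 0.11 for Foxp1 to 0.31 for Klf6.

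**Figure D3:**
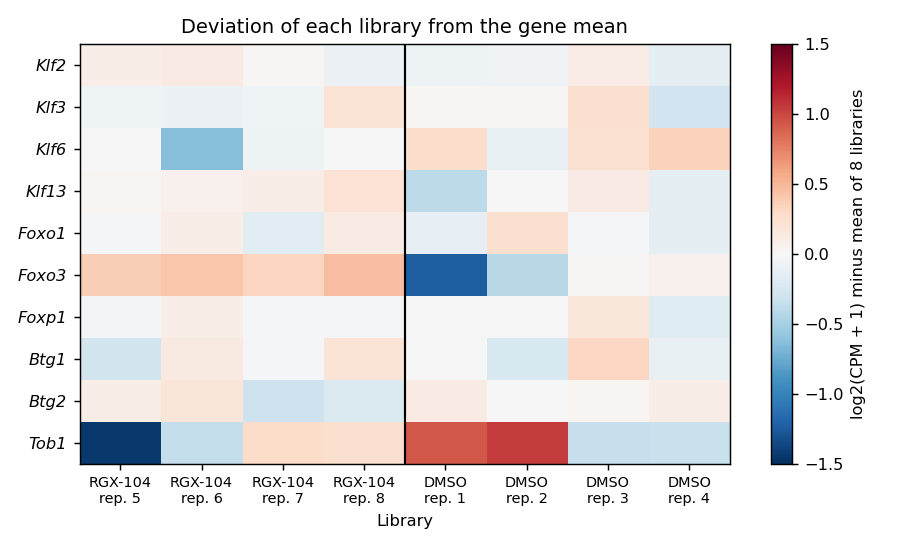
Deviation of each library from the mean of all 8, on the log2(CPM + 1) scale, with RGX-104 libraries left of the line and DMSO libraries right of it. The deepest colours belong to the 2 lowest genes, Tob1 at -1.45 in RGX-104 replicate 5 and Foxo3 at -1.24 in DMSO replicate 1, and most other cells are pale.

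Klf6 had the largest spread of those 8, and the tested genes of at least 50 CPM whose pattern was nearest to it were Lpin1, Brd8 and Cc2d1b, out of 3543. Their root mean square difference from Klf6 over 8 libraries was 0.105, 0.130 and 0.138 on the centred log2(CPM + 1) scale. Lpin1, a phosphatidate phosphatase of lipid synthesis, averaged 54.1 ± 13.0 CPM in RGX-104 and 72.3 ± 11.6 CPM in DMSO, and was lowest in RGX-104 replicate 6, like Klf6. Brd8 averaged 109.7 ± 14.7 CPM in RGX-104 and 133 ± 17.2 CPM in DMSO, and Cc2d1b 81.8 ± 10.1 CPM in RGX-104 and 116 ± 20.8 CPM in DMSO. Because these genes were picked for likeness to Klf6 over the same 8 libraries, lower means in RGX-104 follow from the choice. They are no separate support for a difference.

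None of the relatives of the 10 genes passed. Of 17 other KLF and SP genes 9 were tested, of which 7 lay above 0 and 2 below. Their median log2 fold change was 0.23. Sp1, an activator that binds GC boxes, averaged 259 ± 24.5 CPM in RGX-104 and 229 ± 52.4 CPM in DMSO, and Klf7 206 ± 17.8 CPM in RGX-104 and 199 ± 30.7 CPM in DMSO. Sp4 averaged 191 ± 11.1 CPM in RGX-104 and 161 ± 14.8 CPM in DMSO, and Klf9, chosen after its values were seen, 38.6 ± 19.9 CPM in RGX-104 and 20.6 ± 6.14 CPM in DMSO. For both genes every RGX-104 library was above every DMSO library, as in 2.2% of all tested genes, and neither had an unadjusted p under 0.05. Klf9 reached 68.2 CPM in RGX-104 replicate 6. Its lowest RGX-104 value, 26.69 CPM in replicate 5, barely exceeded its highest DMSO value, 26.57 CPM in replicate 3. That gap is below the CPM of 1 apparent molecule. Foxo4, the third FOXO gene of T cells, averaged 36.9 ± 10.6 CPM in RGX-104 and 33.3 ± 8.34 CPM in DMSO, and Foxp4 22.3 ± 4.84 CPM in RGX-104 and 28.2 ± 10.3 CPM in DMSO. Tob2, the paralog of Tob1, stood at 124 ± 43.1 CPM in RGX-104 and 111 ± 18.3 CPM in DMSO, above Tob1 in each of the 8 libraries, where a level counts 3' ends.

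The genes listed as partners of BTG and TOB proteins were those of the CCR4-NOT deadenylase, Pan2, Pan3, and the poly(A) binding protein genes Pabpc1 and Pabpc4. All of them were detected. Of 15 tested genes 0 passed, 6 lay above 0 and 9 below, and the median log2 fold change was -0.06. Pabpc1, the main cytoplasmic poly(A) binding protein, averaged 4441 ± 306 CPM in RGX-104 and 4074 ± 405 CPM in DMSO, and Cnot6l, a deadenylase subunit, 241 ± 33.2 CPM in RGX-104 and 275 ± 95.2 CPM in DMSO. Pabpc4 was the member of that list with an unadjusted p under 0.05, at 255 ± 61.0 CPM in RGX-104 and 183 ± 24.7 CPM in DMSO (edgeR, log2 fold change 0.46 ± 0.18, unadjusted p = 0.0218, adjusted p = 1.00).

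The kinase pathway that controls FOXO location had 16 tested genes, 10 above 0 and 6 below, with a median of 0.05 and 0 called. Ywhaz, which encodes an adaptor that binds phosphorylated FOXO proteins, had 196, 236, 221 and 208 CPM in RGX-104 replicates 5 to 8 and 374, 339.6, 295 and 244 CPM in DMSO replicates 1 to 4, without overlap (edgeR, log2 fold change -0.56 ± 0.16, unadjusted p = 0.00215, adjusted p = 0.872). In 1.35% of all tested genes every RGX-104 library was below every DMSO library. Pik3ip1, an inhibitor of PI3K in resting T cells, averaged 396 ± 39.0 CPM in RGX-104 and 351 ± 27.6 CPM in DMSO. Pik3r5, a regulatory subunit of PI3K, and Ywhab, a relative of Ywhaz, had log2 fold changes of 0.19 and 0.02, with overlapping groups.

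Targets of KLF2 and FOXO1 in T cells were spread to both sides of 0. Of 14 tested, 8 lay above 0 and 6 below, with a median of 0.08, and 0 passed, while at an unadjusted p under 0.05 there were 1 higher and 2 lower, against 1.98% higher and 1.82% lower of all genes. S1pr1, the receptor for egress from lymph nodes, had 400.2, 374, 415 and 412 CPM in RGX-104 replicates 5 to 8 and 416, 586, 561 and 446 CPM in DMSO replicates 1 to 4. The highest RGX-104 library was just below the lowest DMSO library (edgeR, log2 fold change -0.34 ± 0.13, unadjusted p = 0.0182, adjusted p = 1.00). That gap, 414.6 CPM in RGX-104 replicate 7 against 416.5 CPM in DMSO replicate 1, is below the CPM of 1 apparent molecule. Il7r, the receptor chain for a survival cytokine of naive T cells, averaged 310 ± 28.7 CPM in RGX-104 and 387 ± 41.8 CPM in DMSO (edgeR, log2 fold change -0.34 ± 0.13, unadjusted p = 0.0213, adjusted p = 1.00). Its highest RGX-104 value, 352.8 CPM in replicate 8, was below its lowest DMSO value, 353.6 CPM in replicate 2, by less than 1 apparent molecule. Bcl6, a repressor that FOXO factors can induce, had 133, 107, 121 and 119.7 CPM in RGX-104 replicates 5 to 8 and 40.8, 91.8, 70.0 and 55.3 CPM in DMSO replicates 1 to 4 (edgeR, log2 fold change 0.88 ± 0.25, unadjusted p = 0.00226, adjusted p = 0.872). Among the 14 tested targets the groups did not overlap for 1 higher gene, Bcl6, and 2 lower genes, S1pr1 and Il7r. Of all tested genes this held for 2.2% higher and 1.35% lower. The most abundant targets, Bcl2, Ccr7 and Tcf7, had log2 fold changes of -0.08, 0.13 and 0.06, and their groups overlapped.

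Of 20 other genes of quiescence none was called. Of 15 tested, 8 lay above 0 and 7 below, with a median of 0.05, and none had an unadjusted p under 0.05. Peli1, a ubiquitin ligase that restrains T cell activation, averaged 741 ± 69.6 CPM in RGX-104 and 830 ± 118 CPM in DMSO. Bach2, a repressor of effector genes, averaged 510.2 ± 12.3 CPM in RGX-104 and 540 ± 119 CPM in DMSO, and Pdcd4, an inhibitor of translation, 394 ± 18.2 CPM in RGX-104 and 368 ± 75.5 CPM in DMSO.

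Of 16 immediate early genes, which stimulation induces and among which Klf6 and Btg2 are often counted, 0 passed, with 10 above 0 and 6 below. Jun averaged 67.6 ± 12.4 CPM in RGX-104 and 41.2 ± 10.1 CPM in DMSO (edgeR, log2 fold change 0.70 ± 0.31, unadjusted p = 0.0368), and Junb 316 ± 39.4 CPM in RGX-104 and 246 ± 25.5 CPM in DMSO (edgeR, unadjusted p = 0.0326). Zfp36l1 and Ier2, the others of high level, had log2 fold changes of 0.02 and -0.02. Fos, at few molecules per library, had 1.24, 2.72, 3.52 and 0 CPM in RGX-104 replicates 5 to 8 and 20.7, 4.46, 20.9 and 20.1 CPM in DMSO replicates 1 to 4. Every RGX-104 library was below every DMSO library, as in 1.35% of all tested genes (edgeR, log2 fold change -3.16 ± 1.36, unadjusted p = 0.0316, adjusted p = 1.00). Klf6 and Fos had the lower mean in RGX-104, while Jun and Junb had the higher mean there, and none of the 4 passed.

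Of 17 tested cell cycle genes 0 passed, with 12 above 0 and 5 below and a median of 0.10. Ccnd2, the D-type cyclin of resting and early activated T cells, was the 1 gene of this list at an unadjusted p under 0.05, at 1871 ± 112 CPM in RGX-104 and 1543 ± 118 CPM in DMSO without overlap (edgeR, log2 fold change 0.26 ± 0.09, unadjusted p = 0.00934, adjusted p = 1.00). Groups lay apart in this direction for 2.2% of all tested genes. Cdk6, a kinase that D-type cyclins activate, and Mcm7, a subunit of the replicative helicase, had log2 fold changes of 0.09 and 0.20, and their groups overlapped.

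**Figure D4:**
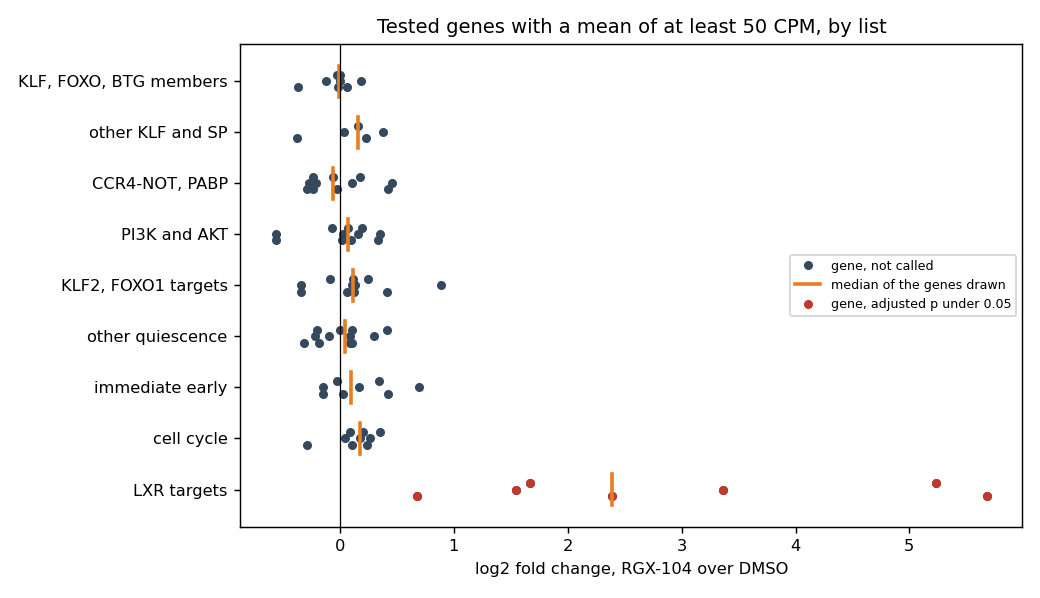
Log2 fold change, RGX-104 over DMSO, of each tested gene with a mean of at least 50 CPM, 1 row per list, with an orange line at the median of the genes drawn. The 8 KLF, FOXO and BTG genes drawn lie between -0.37 and 0.18, and every called gene drawn is one of the 7 LXR targets.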

How the data were processed

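RNA was counted in 8 libraries of naive mouse CD8+ T cells, 4 with RGX-104 and 4 with DMSO, grouped by their labelled library names. The authors deposited raw counts of reads per gene symbol, which are whole numbers that sum to a different total in each library. Libraries were made with a QuantSeq 3' mRNA kit, per the labels' protocols. The submitters' processing notes list GRCm38 and the tools STAR 2.7.8a, R 4.1.0 and DESeq2 1.4, but not what each did. How reads were counted, on which annotation, with which strand setting and with or without molecular identifiers is not given in the sources used here, so reads of overlapping genes on opposite strands cannot be told apart.

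The test was edgeR's quasi-likelihood test (edgeR 4.0.16, R 4.3.3) with TMM factors and no covariate, on genes that filterByExpr kept at a minimum count of 10. Benjamini-Hochberg adjustment ran over the 10037 genes tested. Standard errors and 95% intervals were derived from the F statistic. The edgeR, limma-voom and DESeq2 fits were run on simulated data with known changes. The limit set there on false calls applied to edgeR and limma-voom but not to DESeq2, so calls by DESeq2 carry less assurance. The outcome is not reported here. Apparent molecules are the number that gives, under Poisson sampling, the zeros seen among genes of 2 to 20 CPM. The chi-square of counts between replicates was at least 69.4 per degree of freedom, which covers the counting of reads only, and reads are not independent molecules. Library numbers are unique across groups, and the labels give no batch or day. The members and gene lists were chosen with earlier results of these data known. All members are named, and of each other gene list the called genes, those with an unadjusted p under 0.05 and the 3 tested genes of highest mean CPM, with exceptions marked where they occur. Some genes of these pathways were left out of the lists and are not reported here. Marker lists of other cell types are given as sums. For the member of largest spread at 50 CPM or more, the 3 genes nearest in pattern are named. Alternatives were other size factors, no filter, DESeq2 1.42.0, limma-voom (limma 3.58.1), a robust dispersion, an adjustment for genes detected per library, DMSO replicate 4 alone, and each library left out. Positions are GRCm38, from GENCODE M21, and 39351 of 41730 symbols matched RefSeq of GRCm38.p6.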

Additional observations from a re-analysis of the deposited data

Results flagged for a closer look

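Single libraries stood far from their 3 companions in 13 of 128 groups. About 6.4 such groups would arise by chance if values were independent and normally distributed. Items near 0 CPM, such as Foxp2, Btg3 and the dendritic, platelet and neutrophil sums below, are not, so no excess can be read from this. Of the members, Klf3 stood at 763 CPM in RGX-104 replicate 8, against 622 to 633 CPM in the other RGX-104 libraries, and Foxp1 at 1243 CPM in RGX-104 replicate 6, against 1123 to 1132 CPM. Without RGX-104 replicate 8 the log2 fold change of Klf3, and without replicate 6 that of Foxp1, remained without a call. Of the related genes, Klf7 stood at 244 CPM in DMSO replicate 3, Il7r at 353 CPM in RGX-104 replicate 8 and Fos at 4.46 CPM in DMSO replicate 2. Foxp2, too low to test, reached 6.24 CPM in RGX-104 replicate 8 and 7.04 CPM in DMSO replicate 1, and Btg3, also too low to test, reached 6.58 CPM in DMSO replicate 1. Dendritic cell markers summed to 6.24 CPM in RGX-104 replicate 7 and 7.11 CPM in DMSO replicate 4, platelet markers to 6.93 CPM in RGX-104 replicate 5 and 2.94 CPM in DMSO replicate 4, and neutrophil markers to 34.7 CPM in DMSO replicate 4.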

How the results depend on the processing

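No member was called under any of the 15 alternatives. Klf2, Klf6, Klf13, Foxo3 and Btg2 kept their direction under each of them. Over all 10 members the direction turned in 20 of 150 refits, all of them of the other 5 members. Foxo1 was at -0.0158 on the log2 scale with DESeq2 size factors, at -0.00172 without a filter and at -0.0159 with DESeq2. Klf3 and Foxp1 were at 0.0564 and 0.0466 when adjusted for genes detected per library. Against DMSO replicate 4 alone Klf3, Foxp1, Btg1 and Tob1 were at 0.26, 0.15, 0.10 and 0.13, and the median of the members at 0.14, in a fit where the median of all genes was 0.13 and the spread comes from RGX-104 alone. Leaving out 1 library gave -0.11 to 0.0539 for Klf3, -0.0426 to 0.0852 for Foxo1, -0.0747 to 0.0314 for Foxp1 and -0.0781 to 0.10 for Btg1. It gave 0.03 to 0.11 for Klf2, -0.47 to -0.24 for Klf6, 0.09 to 0.25 for Klf13, 0.48 to 0.87 for Foxo3, -0.21 to -0.04 for Btg2 and -0.90 to -0.43 for Tob1. Over all genes, DESeq2 called 25 higher and 19 lower, the fit without a filter called 4 lower, limma-voom 3 lower, and the adjustment for genes detected left 6 higher. Leaving out 1 library gave 7 to 11 higher and 1 to 3 lower. The cause of these changes was not tested. Foxo3 and Tob1 have the fewest apparent molecules of the members, and the part of this in their spread was not tested. No paired analysis was possible because the labelled library numbers are unique across groups.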
